A study of Mus musculus with 2 samples.

Results

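Inward rectifier potassium channels were followed as 9 genes, Kcnj2, Kcnj3, Kcnj4, Kcnj6, Kcnj9, Kcnj10, Kcnj11, Kcnj12 and Kcnj16, taken by symbol out of 55536 annotated genes. They were measured by total RNA sequencing of the left cerebral cortex of 2 male mice, aged 8-10 months, of the strain labelled 5xFAD/CAST, a cross of 5xFAD with CAST per the sample description. Both animals belong to a single group, and the labels call them biological replicates 1 and 2, each with its own biosample label, and the donor label they share is that of the strain. The 5xFAD line carries human transgenes of familial Alzheimer disease under the Thy1 promoter, which is active mainly in neurons, and CAST is a wild-derived inbred strain. Animals without the transgenes were not analysed here, so every value below is a level in tissue labelled as left cortex of this cross, and no value is an effect of the transgenes. With 1 group there was no contrast between conditions, and no p-value was computed.

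Inward rectifiers pass potassium more easily into the cell than out of it and hold the membrane near the potassium equilibrium potential. Kir2 channels do so at rest. GIRK channels open when a receptor coupled to Gi or Go releases G protein beta-gamma subunits, which makes them the slow inhibitory arm of GABA-B and adenosine receptors in cortical neurons. Kir4.1, alone or with Kir5.1, sits in astrocytes and oligodendrocytes and takes up the potassium that active neurons release, and Kir6.2 joins a sulfonylurea receptor to form the ATP-sensitive channel. The words neuronal and glial are used below for these textbook roles. The libraries are of whole tissue, so no value assigns a transcript to a cell type, and fewer cells of a type and less RNA per cell cannot be told apart.

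The 9 genes encode the same kind of pore, and the stretch around the potassium filter is set out for comparison. The 42 coding bases below, shown for 8 of the genes, are from the annotated transcript with the highest deposited share of each gene, read from the GENCODE M21 transcripts of mm10, and the 3 codons in capitals are the filter signature. Each stretch was located by a pattern that holds the signature, with tyrosine or phenylalanine in the middle. That all of them carry it is therefore no result.
Kcnj2 (Kir2.1), chr11:111072189-111072230, plus strand: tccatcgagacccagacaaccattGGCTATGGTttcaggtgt
Kcnj4 (Kir2.3), chr15:79485358-79485399, minus strand: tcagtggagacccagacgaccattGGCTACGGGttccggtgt
Kcnj3 (GIRK1), chr2:55437609-55437650, plus strand: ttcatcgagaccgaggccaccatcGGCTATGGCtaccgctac
Kcnj6 (GIRK2), chr16:94832768-94832809, minus strand: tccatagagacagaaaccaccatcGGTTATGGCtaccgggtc
Kcnj9 (GIRK3), chr1:172326175-172326216, minus strand: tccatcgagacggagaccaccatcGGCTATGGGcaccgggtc
Kcnj10 (Kir4.1), chr1:172369284-172369325, plus strand: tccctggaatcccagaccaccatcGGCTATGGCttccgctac
Kcnj16 (Kir5.1), chr11:111024886-111024927, plus strand: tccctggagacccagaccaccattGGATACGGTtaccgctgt
Kcnj11 (Kir6.2), chr7:46099487-46099528, minus strand: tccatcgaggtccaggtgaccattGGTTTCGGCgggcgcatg

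Among the 8 genes shown, the middle codon in capitals is a tyrosine codon in each but Kcnj11, where it is a phenylalanine codon. Over these 42 bases the closest pair of the 8 was Kcnj6 and Kcnj9, which matched at 36. The lowest match was 24, between Kcnj11 and each of Kcnj6, Kcnj9 and Kcnj10. Over aligned coding sequence the Kir2 genes were the most alike, with 77.7% identity of Kcnj4 and Kcnj12, 72.7% of Kcnj2 and Kcnj12 and 69.8% of Kcnj2 and Kcnj4. Kcnj6 and Kcnj9 followed at 69.4%, whereas Kcnj10 and its partner Kcnj16 shared only 57.9%. Little of the sequence recurs in other genes. The share of a gene's 50-base words also present in another annotated gene was 0% for Kcnj4, Kcnj11 and Kcnj12 and 0.204% for Kcnj2, and it reached 4.34% in Kcnj6. The exception was Kcnj3, with 29.3%, all of it shared with Gm26794, a noncoding gene on the opposite strand. The genes have 1621 exon bases in common, 31.1% of those of Kcnj3, and Gm26794 was given 80 and 95 reads. The setting used for strand in the authors' counting is not given in the sources used here, and how reads of that stretch bear on the level of Kcnj3 was not tested.

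All 9 genes were detected, meaning that neither animal fell under 1 TPM. By the same rule 14843 of 55536 annotated genes were detected, and the 9 were chosen with earlier results of these data known. TPM is a share of all transcripts in the library, corrected for transcript length, and so allows levels of different genes to be set beside each other. Kcnj4 stood first, followed by Kcnj9, Kcnj10 and Kcnj3 close together, then Kcnj6, Kcnj11, Kcnj2, Kcnj16 and Kcnj12. Behind these levels lay 336 to 5359 reads per gene and library. The values that follow are given for replicate 1 and then replicate 2, from the tables in RSEM format, with the mean ± SD of the 2 animals.

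**Figure D1:**
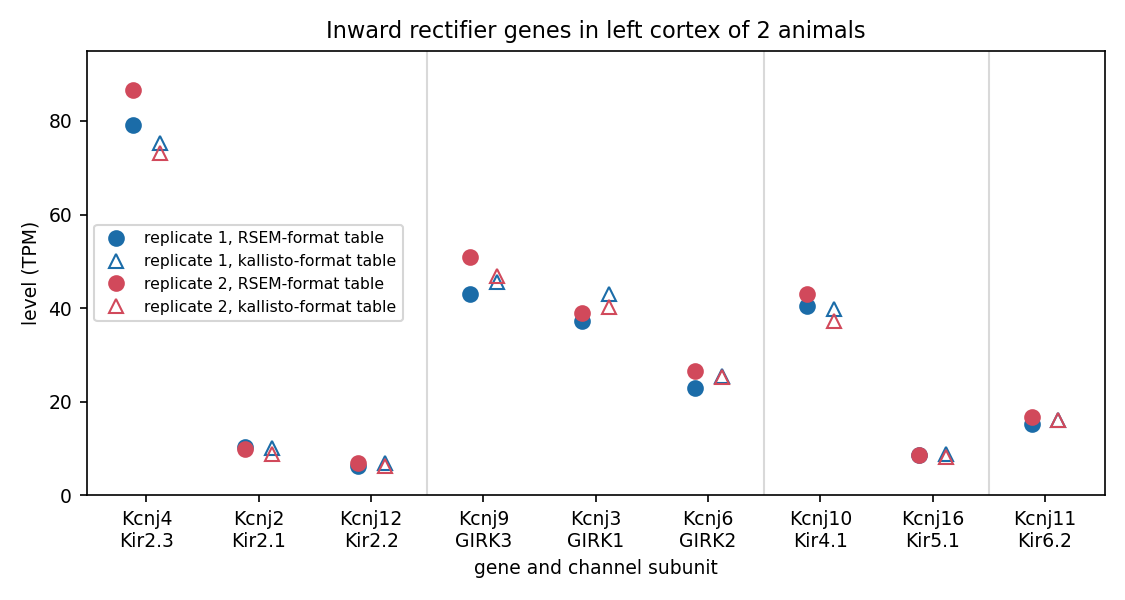
Level in TPM (vertical axis) of each gene in each animal, by subunit class; filled circles are the RSEM-format table, open triangles the kallisto-format table, and colour marks the replicate. Kcnj4, between 73.1 and 86.7 TPM in all 4 values, lies above every other gene, and Kcnj9, Kcnj10 and Kcnj3 lie between 37.2 and 50.8 TPM.

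Among the Kir2 genes, Kcnj4, which encodes Kir2.3, a channel of forebrain neurons, measured 79.04 and 86.7 TPM (82.87 ± 5.42). Kcnj2, which encodes Kir2.1, the widely expressed strong rectifier, measured 10.3 and 9.91 TPM (10.11 ± 0.276). Kcnj12, which encodes Kir2.2, measured 6.36 and 6.88 TPM (6.62 ± 0.368) and was the lowest of the 9. One gene therefore carried most of the class in both animals: Kcnj4 made 82.6% and 83.8% of the summed Kir2 TPM, and its level was 7.67-fold and 8.75-fold that of Kcnj2. Among protein-coding genes ranked by mean TPM, Kcnj4 stood at percentile 95 and Kcnj12 at percentile 56.2. Kcnj12 lay below Kcnj2 by a log2 ratio of -0.70 in replicate 1 and -0.53 in replicate 2.

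Among the GIRK genes, Kcnj9, which encodes GIRK3, a subunit that joins other GIRK subunits and governs their trafficking, measured 43.08 and 50.83 TPM (46.95 ± 5.48). Kcnj3, which encodes GIRK1, a subunit that needs a partner to reach the cell surface, measured 37.24 and 38.99 TPM (38.12 ± 1.24). Kcnj6, which encodes GIRK2, the subunit that can form channels by itself, measured 23.04 and 26.49 TPM (24.77 ± 2.44). The order was the same in both animals, and the ranges of the 3 genes did not overlap. Kcnj9 made 41.7% and 43.7% of the summed GIRK TPM, Kcnj3 36.0% and 33.5%, and Kcnj6 22.3% and 22.8%. Kcnj5, which encodes GIRK4, the cardiac partner of GIRK1, was far lower, at 0.46 and 0.33 TPM on 45 and 34 reads.

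Of the glial pair, Kcnj10 measured 40.44 and 43.03 TPM (41.73 ± 1.83) and Kcnj16 measured 8.64 and 8.67 TPM (8.655 ± 0.0212). Kcnj10 exceeded Kcnj16 by 4.68-fold in replicate 1 and 4.96-fold in replicate 2. Kir5.1 does not usually form working channels without a partner such as Kir4.1, and here its gene had 17.6% and 16.8% of the summed TPM of the pair. Kcnj11, the pore subunit of the ATP-sensitive channel, measured 15.26 and 16.7 TPM (15.98 ± 1.02).

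Set against each other, the GIRK genes together exceeded Kcnj10, but no single GIRK gene was far above it. The summed GIRK level was 2.56-fold that of Kcnj10 in replicate 1 and 2.70-fold in replicate 2, a log2 ratio of 1.39 ± 0.06 (SD, n = 2). Kcnj9 was above Kcnj10 by a log2 ratio of 0.09 and 0.24, and the lowest Kcnj9 value exceeded the highest Kcnj10 value by only 0.0500 TPM. Kcnj3 was below Kcnj10 in the RSEM-format tables, at -0.12 and -0.14, and above it in the kallisto-format tables, at a mean of 0.11, so the order of those genes depends on the table. Kcnj6 was below Kcnj10 in both tables, with a mean log2 ratio of -0.76 ± 0.08 in the RSEM format and -0.60 in the kallisto format. As shares of the summed TPM of all 9 genes, GIRK took 39.2% and 40.4%, Kir2 36.3% and 35.9%, Kir4.1 with Kir5.1 18.6% and 17.9%, and Kir6.2 5.79% in each animal.

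**Figure D2:**
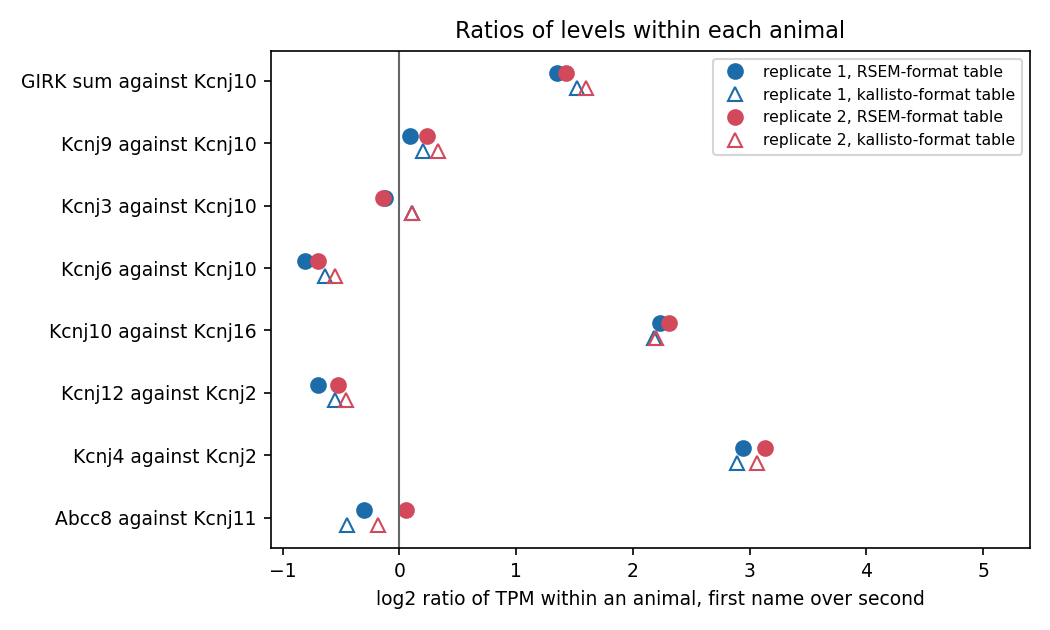
Log2 ratio of TPM between the named genes within an animal (horizontal axis), for replicates 1 and 2 and for both kinds of table; the vertical line marks equal levels. The GIRK sum lies at 1.35 and 1.43 against Kcnj10, and Kcnj3 against Kcnj10 changes side between the tables.

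In all but one step, the order of levels was the same in both kinds of table. Beside the exchange of Kcnj3 and Kcnj10, the ranges of Kcnj2 and Kcnj16 overlapped in the kallisto-format tables, at 8.74 to 10.2 TPM and 8.10 to 8.80 TPM. The other neighbours in the order had ranges that did not overlap in either table, although 2 animals give little information on spread.

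The GIRK genes differ from the other 6 in structure. Kcnj2, Kcnj4, Kcnj10, Kcnj11, Kcnj12 and Kcnj16 each have their whole coding sequence in 1 exon of the main transcript, whereas Kcnj9 has 2 coding exons, Kcnj3 has 3 and Kcnj6 has 4. Several annotated forms of the GIRK genes were present together. The end of the coding sequence is where some of them part, and it also separates the family by a pattern of tail that PDZ scaffold proteins bind. In the 30 bases below, stop codon included, capitals mark the last 4 codons.
Kcnj4-201, chr15:79484440-79484469, minus strand: atttcctatcgcaggGAATCTGCCATCtga
Kcnj2-201, chr11:111073041-111073070, plus strand: aggcccttaaggcgaGAATCGGAGATAtga
Kcnj12-202, chr11:61070438-61070467, plus strand: cggccctacagacggGAGTCGGAGATTtga
Kcnj10-201, chr1:172370031-172370060, plus strand: gcccttagtgtgcgcATCAGCAACGTCtga
Kcnj9-201, chr1:172322863-172322892, minus strand: ccacccccagagagtGAGTCCAAGGTGtga
Kcnj6-202, chr16:94762360-94762389, minus strand: gcaaacctagagaatGAATCCAAAGTAtag
Kcnj6-201, chr16:94749266-94762422, minus strand, across an intron: ccggaagaactgacgGAGAGGAATGGGtga
Kcnj3-201, chr2:55595368-55595397, plus strand: agaaaaatgaactctGACCGTTTCACAtag
Kcnj16-201, chr11:111025744-111025773, plus strand: aataggatctccatgGAATCCCAGATGtag
Kcnj11-205, chr7:46098725-46098754, minus strand: tttagcatctctccaGATTCCTTGTCCtga

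The class I PDZ pattern searched here reads, in codons, as serine or threonine, then any residue, then valine, isoleucine or leucine at the end. The main transcripts of 5 of the 9 genes end in that pattern, namely Kcnj2, Kcnj4, Kcnj9, Kcnj10 and Kcnj12. Those of Kcnj3, Kcnj11 and Kcnj16 do not. The Kcnj16 tail has serine in the same place but ends in methionine, which the pattern leaves out. Whether Kir5.1 has a tail for PDZ proteins therefore cannot be read from this search. Kcnj6 has both kinds of end. Kcnj6-201, of 414 codons and without the pattern, took 57.26% and 55.55% of the gene's TPM. Kcnj6-202 and Kcnj6-207, of 425 and 407 codons, share the end with the pattern and together took 36.9% and 40.5%. The kallisto-format tables gave 36.3% and 40.1% for that pair, although they divided it differently, with 23.2% and 26.6% for Kcnj6-202 against 35.26% and 38.91% in the RSEM format. The division of Kcnj6 by its coding end was therefore alike in both tables, and the division by its start was not.

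For Kcnj3, Kcnj3-201 and Kcnj3-203 encode the same 501 codons and together took 95.9% and 96.6% of the TPM. How that share was split depended on the table, with 75.32% and 80.14% for Kcnj3-201 in the RSEM format and 59.5% and 60.4% in the kallisto format. All 1679 bases of Kcnj3-203 also lie in Kcnj3-201, so no base belongs to Kcnj3-203 alone. A shorter form, Kcnj3-202, of 235 codons, took 4.12% and 3.39%. For Kcnj9, the forms with the full 393 codons took 85.9% and 87.5%, and Kcnj9-203, annotated as a retained intron, took 14.12% and 12.48%. Kcnj9-203 held 196 and 182 reads, and its share was 13.2% and 11.7% in the kallisto format. As a share of the gene's expected reads, not corrected for length, it was 5.37% and 4.71%, and that of Kcnj3-203 was 7.48% and 5.79%.

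**Figure D3:**
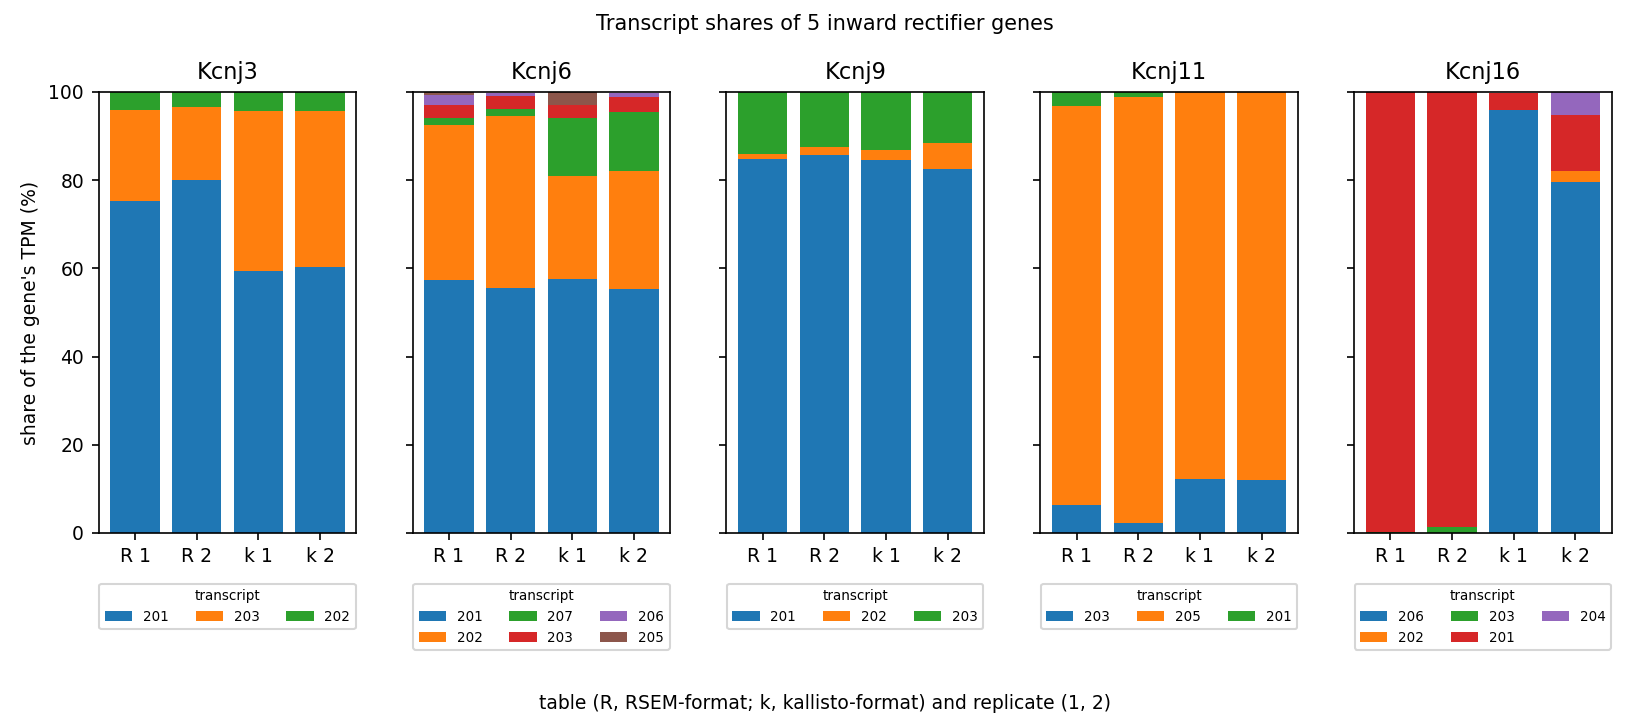
Share of the gene's TPM (vertical axis, percent) taken by each annotated transcript with at least 1% in some library, for the 5 genes with more than 1 such transcript, in both kinds of table (R and k) and both animals (1 and 2). Kcnj9-201 takes 82.5% to 85.6% in all 4 Kcnj9 columns, while Kcnj9-202 runs from 1.16% to 5.82%, and the bars of Kcnj16 change transcript between the tables.

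Kcnj11 came mostly from the single-exon Kcnj11-205, with 90.37% and 96.73%. The short noncoding Kcnj11-203 had 6.35% and 2.17%, on 9 and 3 reads. For Kcnj12, Kcnj12-202 had 100% in both animals and both tables. Kcnj2, Kcnj4 and Kcnj10 have a single annotated transcript. Kcnj16 was the gene whose start could not be placed. The RSEM format gave Kcnj16-201 99.74% and 98.67%, and the kallisto format gave it 3.66% and 12.8%, with 96.0% and 82.0% for transcripts that start at the upstream end of the gene, at position 110968033. Kcnj16-201 and the upstream Kcnj16-206 share 3557 bases and have only 114 and 144 bases of their own, and both encode the same 419 codons. The level of Kcnj16 as a gene differed little, at a mean of 8.655 TPM in one table and 8.45 TPM in the other.

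By position, 4 of the 9 genes form neighbouring pairs. Kcnj9 (chr1:172320501-172329318, minus strand) and Kcnj10 (chr1:172341210-172374085, plus strand) have 11891 bases between them and are transcribed away from each other. Kcnj16 (chr11:110968033-111027968) and Kcnj2 (chr11:111066164-111076821) lie on the plus strand with 38195 bases between them. The levels of the first pair were close, at 46.95 and 41.73 TPM, although one gene is known from neurons and the other from glia. The windows of 250 bases upstream of the Kcnj9 and Kcnj10 start sites are shown because they face each other at this locus. They come from the RefSeq table of GRCm38.p6, and capitals mark TATAAA in the first and CCGCCC, the reverse complement of GGGCGG, in the second.
Kcnj9, chr1:172329323-172329572, minus strand: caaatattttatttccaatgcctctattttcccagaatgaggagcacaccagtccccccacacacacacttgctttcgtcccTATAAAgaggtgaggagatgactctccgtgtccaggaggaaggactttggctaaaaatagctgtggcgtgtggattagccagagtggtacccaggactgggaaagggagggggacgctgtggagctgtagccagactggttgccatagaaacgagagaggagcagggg
Kcnj10, chr1:172340960-172341209, plus strand: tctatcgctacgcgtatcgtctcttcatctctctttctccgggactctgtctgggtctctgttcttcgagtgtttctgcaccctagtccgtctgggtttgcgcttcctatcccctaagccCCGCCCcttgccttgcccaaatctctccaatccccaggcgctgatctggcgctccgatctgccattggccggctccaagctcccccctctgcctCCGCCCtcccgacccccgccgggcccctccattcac

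The Kcnj10 window holds 17 CG dinucleotides and 2 matches to GGGCGG, and the Kcnj9 window holds 5 CG and none. The Kcnj9 window has 1 match to TATAAA, and the Kcnj10 window has none. That match lies nearer the far end of the window than the start site. Both motifs were searched on both strands. Of 32851 such windows of the table, 12.4% hold TATAAA and 32.7% hold GGGCGG, the median number of CG is 6, and 76.5% have fewer CG than Kcnj10 against 44.4% for Kcnj9. Such matches describe the reference sequence, not a bound site, and alleles of the CAST strain were not distinguished.

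Between the 2 animals the 9 genes differed by small ratios. Differences are log2 ratios of replicate 2 over replicate 1 on reads scaled by TMM library sizes, with 95% Clopper-Pearson intervals. These intervals hold counting error alone, because each animal has 1 library. Repeated reads of the same molecule are also not told apart, since there are no molecular identifiers. A gene was called different at 2-fold or more, with at least 10 reads in 1 library and a stricter interval, with an error rate of 0.001, that excluded equal levels. Of the 9 genes, 0 were called, against 1.22% of 19484 genes tested, of which 0.570% were higher in replicate 2 and 0.647% higher in replicate 1. By the stricter interval alone 1 was, against 8.79% of genes tested. That gene was Kcnj9, with 3647 and 3875 reads and a ratio of 0.12 (0.06 to 0.19).

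The log2 ratios of the 9 genes ran from -0.18 to 0.12, with a median of -0.01 beside 0.00 for all genes tested. Their median size without sign was 0.08, beside 0.13 for all genes tested. In this and the other comparisons with all genes tested, the background was not matched for read depth, on which counting error depends. Whether the 9 genes differed less between the animals than other genes of like depth was not tested. For 7 of the 9 the 95% interval contained 0, and the share of all genes tested for which it did was not computed. The lowest ratio was that of Kcnj2, with 1375 and 1181 reads and -0.18 (-0.30 to -0.07). Kcnj10, with 5359 and 5092 reads, had -0.04 (-0.09 to 0.02), and Kcnj4, with 4050 and 3967 reads, had 0.01 (-0.06 to 0.07). Kcnj6 had 0.09 (-0.01 to 0.20), Kcnj16 -0.14 (-0.29 to 0.01), and Kcnj12, the least deeply read, -0.02 (-0.24 to 0.21). The sign of Kcnj3, Kcnj10 and Kcnj12 changed with the scaling of the libraries. On the deposited TPM 8 of the 9 genes were higher in replicate 2, but so were most genes, with a median log2 TPM ratio of 0.13 over all genes and 0.11 over the 9. On kallisto-format TPM only 2 of the 9 were higher in replicate 2, and the value over all genes was not computed for that TPM.

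**Figure D4:**
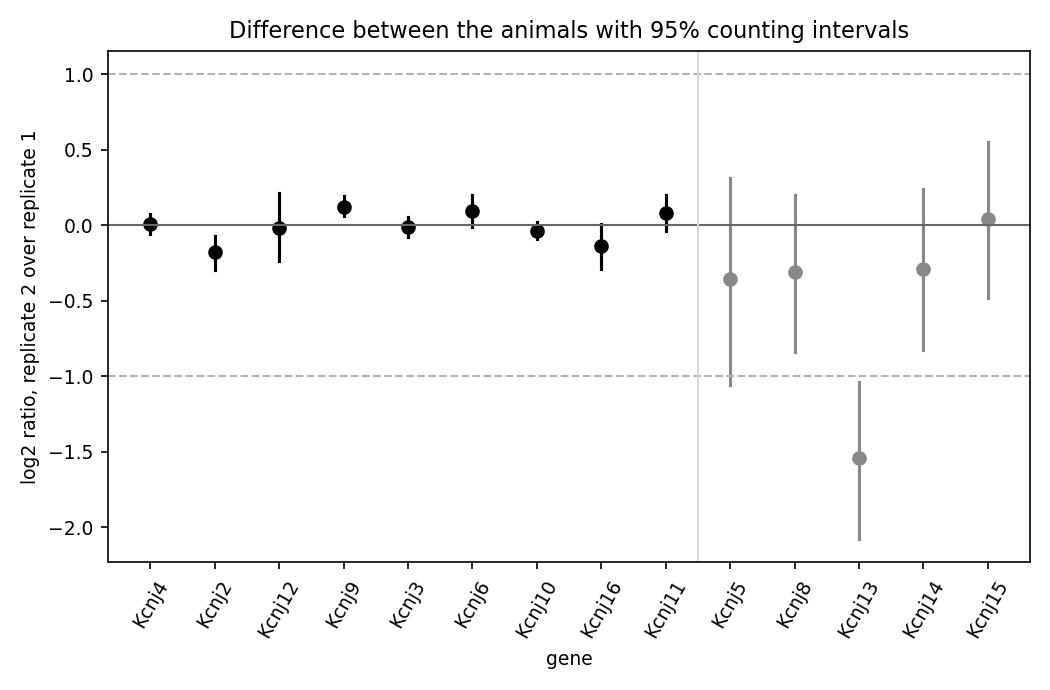
Log2 ratio of replicate 2 over replicate 1 (vertical axis) with 95% counting intervals as bars, for the 9 genes (black) and for 5 other inward rectifier genes (grey); dashed lines mark 2-fold. The 9 genes lie between -0.18 and 0.12, and Kcnj13 lies at -1.54.

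Total expected counts were 34101499 and 32543032. Markers of neurons, at a median of 445 TPM, of astrocytes, at 111 TPM, and of oligodendrocytes, at 98.3 TPM, were all detected in both animals. Markers of striatum were present too, all 9 of them, at a median of 49.5 TPM. All 6 choroid plexus markers were called lower in replicate 2, with a summed level of 554 TPM in replicate 1 and 107 TPM in replicate 2, as were 5 of 8 markers of thalamus and hypothalamus. Markers of glia were lower in replicate 2 without exception, with 8 of 8 for astrocytes (median log2 ratio -0.14) and 7 of 7 for oligodendrocytes (-0.11). So were 4 of 4 for oligodendrocyte precursors (-0.10) and 6 of 6 for microglia (-0.15). Of these glial markers 0 were called, against 1.22% of all genes tested. By the stricter interval alone 7, 4, 1 and 2 differed, in that order, against 8.79%. Neuron markers had a median of 0.04, with 4 of 7 higher in replicate 2, and striatal markers a median of 0.05, with 9 of 9 higher. The part of these differences in the ratios of the inward rectifier genes was not tested. Nor was the part of striatum, choroid plexus, thalamus or hypothalamus in the levels given here.

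The remaining inward rectifier genes were at much lower levels, with a median of 1.04 TPM over 6 genes against 24.77 TPM for Kcnj6, the middle gene of the 9. The 9 and the 6 were divided with earlier results of these data known. The division may itself follow level, so the gap is description only. Kcnj8 (Kir6.1, the vascular ATP-sensitive subunit) measured 1.34 and 1.17 TPM, Kcnj14 (Kir2.4) 1.07 and 0.97 TPM, and Kcnj15 (Kir4.2) 0.67 and 1.45 TPM with 66 reads in each library. Kcnj1 (Kir1.1, a kidney channel) had 0 reads in both, which allows a level of up to 0.0884 and 0.0926 CPM (reads scaled to depth), the floor of 3 reads. Kcnj13 (Kir7.1, a channel of epithelia that include the choroid plexus) was the only one of the 6 called different. It had 129 and 43 reads, 4.42 and 1.65 TPM, and a log2 ratio of -1.54 (-2.08 to -1.04), in the same direction as the choroid plexus markers above.

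The ATP-sensitive channel needs a sulfonylurea receptor beside its pore, and Abcc8, which encodes the receptor SUR1, lies 3758 bases from Kcnj11. Abcc8 measured 12.37 and 17.37 TPM, a log2 ratio to Kcnj11 of -0.30 in replicate 1 and 0.06 in replicate 2, so its side relative to Kcnj11 differed between the animals. In the kallisto-format tables it was below Kcnj11 in both, at a mean of -0.31. It had 967 and 1176 reads and a ratio between animals of 0.32 (0.19 to 0.44), under 2-fold, with a stricter interval that excluded equal levels, while Kcnj11 had 0.08 (-0.04 to 0.20). Abcc9, which encodes the vascular receptor SUR2, was lower, at 1.7 and 1.89 TPM.

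Upstream of the GIRK channels, all 11 receptors known to open them were detected. GABA-B receptor genes led, with Gabbr1 at 278.34 and 289.93 TPM and Gabbr2, the subunit that couples to the G protein, at 78.65 and 86.64 TPM. Adora1, the A1 adenosine receptor, followed at 64.98 and 71.75 TPM. All 12 G protein subunits were detected, at a median of 84.6 TPM. The highest were Gnb1 (332.45 and 367.85 TPM) and Gnb2 (267.0 and 290.43 TPM), which encode beta subunits, and Gnao1 (270.35 and 306.49 TPM), which encodes the alpha subunit of Go. Of 9 regulators of GIRK signalling, all were detected. Rgs4, which speeds the turn-off of G proteins, measured 110.27 and 130.94 TPM. Gnb5, a beta subunit that pairs with regulators of the Rgs7 family, measured 70.57 and 73.37 TPM. Rgs7bp, a membrane anchor of that family, measured 55.07 and 62.6 TPM. None of these 3 groups held a gene called different between the animals, against 1.22% of all genes tested. By the stricter interval alone, 2 of 11 receptors, 2 of 12 G protein subunits and 1 of 9 regulators differed, against 8.79%. The median log2 ratios of the 3 groups were 0.01, -0.05 and -0.03.

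Around Kir4.1, all 12 astrocyte partners were detected, at a median of 47.5 TPM and with values from 13.7 to 664 TPM. Slc1a2, the main astrocyte glutamate transporter, stood highest at 642.71 and 664.23 TPM, and Atp1b2, a sodium pump subunit, measured 178.74 and 189.32 TPM. The median log2 ratio of the 12 between the animals was -0.12, with 2 of 12 above 0, beside -0.04 for Kcnj10. None of the 12 was called, against 1.22% of all genes tested, and by the stricter interval alone 8 of 12 differed, against 8.79%. All 11 scaffold genes were detected, at a median of 51.5 TPM. The highest were the PDZ proteins of the Dlg family, Dlg4 at 290.48 and 315.98 TPM, Dlg2 at 99.85 and 114.81 TPM, and Dlg1 at 63.35 and 74.81 TPM. The median log2 ratio of the 11 scaffold genes was 0.00, and 0 were called, against 1.22% of all genes tested. By the stricter interval alone 1 of the 11 differed, against 8.79%.

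**Figure D5:**
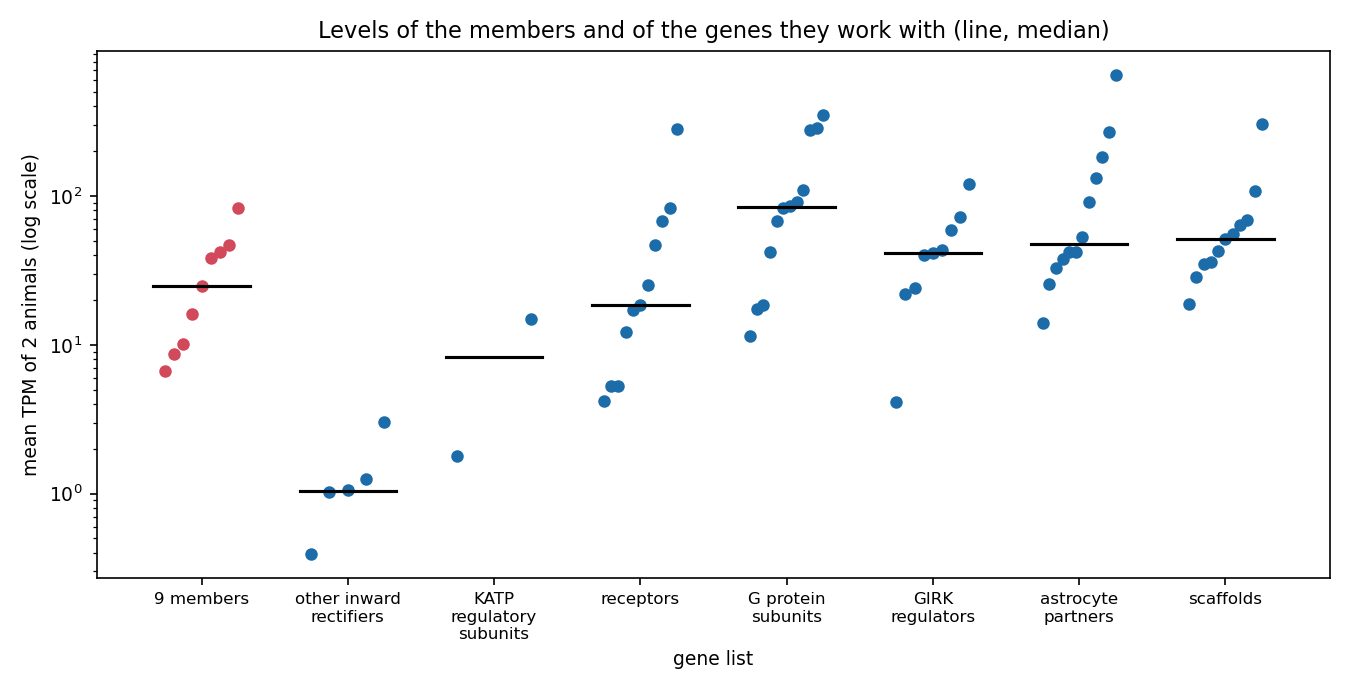
Mean TPM of the 2 animals (vertical axis, log scale) for each gene of the family and of the 7 related lists; each point is a gene and the line is the median of the list. Genes at 0 TPM are not drawn, and the other inward rectifier genes lie below all 9 studied here. The 9 were chosen with earlier results of these data known, so that gap is description only.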

How the data were processed

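Per the file headers, the authors deposited RSEM-format tables of genes and of transcripts with expected counts, TPM and FPKM, and for transcripts the percent taken of the gene. Per the file headers, a further deposited transcript table in kallisto format gives estimated counts and TPM. A deposited text description names mm10 and annotation M21. It says that the kallisto-format values came straight from the reads, and the others from transcriptome alignments. Aligner, versions, strand setting and read filters are each not given in the sources used. Per the labels' protocols, 300 ng of RNA entered each directional library, with spike-in RNA. The deposited TPM are shares of a whole table, so an abundant RNA lowers the TPM of the others.

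Levels are deposited TPM of the 2 animals of 1 group, with mean and SD. For ratios between the animals, expected counts were rounded, scaled by TMM effective library sizes (edgeR 4.0.16 in R 4.3.3) and increased by 0.5 reads, with Clopper-Pearson intervals from scipy 1.17.1. The 96 spike-ins were kept apart. Alternatives were the kallisto-format table, FPKM, library size, spike-in and DESeq2 1.42.0 scaling, no minimum count, 1 added read, the interval alone, shares of expected reads, and each animal left out. Depth was 33925221 and 32380330 expected counts on annotated genes. The members, the 7 related lists and the 11 marker lists were chosen with earlier results of these data known, so no list has a test. Named genes were all 9 members and, of the 7 related lists only, the 3 highest of each, every gene of a list of 6 or fewer, and any gene called different. Marker lists are given as lists. A gene that this rule names and a pore sequence are not reported here. No gene was named for likeness in pattern, since 2 samples give none. Sequences come from GENCODE M21 and RefSeq, of which 8 of the 9 genes had a promoter window.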

Additional observations from a re-analysis of the deposited data

How the results depend on the processing

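The choice of quantification table moved more values than any other alternative tried. In the kallisto-format tables the mean level was 9.45 TPM for Kcnj2, 41.6 TPM for Kcnj3, 74.2 TPM for Kcnj4, 38.5 TPM for Kcnj10 and 8.45 TPM for Kcnj16. The other 4 levels moved by less than 1 SD. The log2 ratio of Kcnj3 to Kcnj10 reversed to 0.11, and those of the GIRK sum to Kcnj10, Kcnj6 to Kcnj10 and Kcnj10 to Kcnj16 became 1.56, -0.60 and 2.19. The cause was not tested. By the interval alone, 1 of the 9 genes and 1713 of all genes differed between the animals, in place of 0 and 237, since no minimum fold then applied. The other alternatives called 0 of the 9 genes. Scaling by the spike-in total gave ratios of 0.07 for Kcnj3, 0.09 for Kcnj4, 0.20 for Kcnj9 and 0.04 for Kcnj10. As shares of expected reads, not per length, Kcnj3-201 took 90.0%, Kcnj6-201 49.8%, Kcnj9-201 94.0% and Kcnj11-205 98.8% of their genes. Leaving out either animal moved no level or ratio of levels by more than 1 SD, but with 2 animals this is a property of the mean. No paired analysis was possible because there was 1 group. With 336 reads at the least, counting error limits Kcnj12 most.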
